A study of Mus musculus with 12 samples.

Results

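The genes of glycogen synthesis and breakdown were followed in the liver and duodenum of corticosterone-treated mice. The members were 9 genes chosen by symbol, namely Gys2, Gys1, Pygl, Gbe1, Ugp2, Ppp1r3b, Ppp1r3c, Ppp1r3g and Pgm1, and 9 of 9 were found in both tables, each of which lists 55416 genes. Male C57BL6/J mice, 8 weeks old at the start, were injected subcutaneously with corticosterone (CORT, the main glucocorticoid of rodents) at 40 mg/kg, or with vehicle (Veh), on each day of 8 weeks. RNA of 50 mg of tissue per sample was sequenced, with 3 Veh and 3 CORT libraries from the liver and 3 Veh and 3 CORT libraries from the duodenum, which the labels call intestine, giving 12 libraries in 4 groups. CORT was given to the whole animal, so a response of the tissue itself and a response to changed feeding or hormones cannot be told apart. The study's own purpose was to ask how long CORT exposure changes the small intestine and the liver of mice that become obese.

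Glycogen is the branched glucose store of liver and muscle. Glucose 6-phosphate is turned to glucose 1-phosphate by phosphoglucomutase (Pgm1), then to UDP-glucose by UDP-glucose pyrophosphorylase (Ugp2), and is added to the growing chain by glycogen synthase (Gys2 in the liver, Gys1 in muscle and most other tissues), while Gbe1 makes the branches. Glycogen phosphorylase (Pygl in the liver) releases glucose 1-phosphate again. Protein phosphatase 1 (PP1) turns the synthase on and the phosphorylase off, and it is held on the glycogen particle by targeting subunits, of which Ppp1r3b, Ppp1r3c and Ppp1r3g are members here. Glucocorticoids owe their name to their part in glucose metabolism, and they are known to raise liver glycogen.

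Of the 3 targeting subunits, Ppp1r3c and Ppp1r3g had the widest ratios between the liver groups, in opposite directions, and the stretch before the start of each gene is shown for that reason. Of the 9 members, 7 had an entry in the table of RefSeq promoters (build GRCm38.p6), and Gys2 and Ppp1r3b had none. The deposited tables were made on GRCm39, so the positions apply to GRCm38.p6 alone. Both runs are written 5′ to 3′ on the strand of the gene and end before its first annotated exon. Ppp1r3c lies on the minus strand and its run is chr19:36736654-36736854, while Ppp1r3g lies on the plus strand and its run is chr13:35967656-35967852. Capitals mark an E-box, CACGTG, whose first base lies 104 bases before the RefSeq start of Ppp1r3c.
Ppp1r3c: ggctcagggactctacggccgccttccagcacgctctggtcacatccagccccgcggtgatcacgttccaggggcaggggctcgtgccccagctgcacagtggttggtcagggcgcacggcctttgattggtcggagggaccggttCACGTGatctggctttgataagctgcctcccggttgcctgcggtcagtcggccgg
Ppp1r3g: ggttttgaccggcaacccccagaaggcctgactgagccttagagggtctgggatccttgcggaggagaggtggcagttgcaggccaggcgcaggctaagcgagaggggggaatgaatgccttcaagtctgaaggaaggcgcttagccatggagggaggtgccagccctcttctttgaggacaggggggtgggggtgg

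Both strands of the 250 bases before the start were searched for 2 motifs that do not overlap each other. The E-box, which reads the same on both strands, was found in Ppp1r3c and in no other of the 7 members, and it occurs in 6.02% of the 32851 promoter windows of the same length. The half-site of the glucocorticoid receptor, TGTTCT or its reverse AGAACA, was found in none of the 7, and in 16.1% of all windows. These letters are matches in a short window and were not measured as binding sites.

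Values are TPM, a transcript's share of its library corrected for gene length, so levels of different genes can be set side by side within a library. Read depth cannot be recovered from them, and the precision therefore rests on the spread among 3 libraries per group. Changes were tested with limma on log2(TPM + 1), on which a change of a gene near 1 TPM looks smaller than it was. A gene was called when its adjusted p was 0.05 or less with a fold change over 1.5. By this rule 6.92% of the 11699 genes tested in the liver were called, with 4.91% higher and 2.01% lower in CORT, and 2.15% of the 13607 genes tested in the duodenum were called. With 3 libraries in each group, 0.1 is the smallest two-sided p that an exact permutation test can reach.

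The libraries were first compared with their labels. Fkbp5, a glucocorticoid-induced chaperone, stood at 248 ± 26.1 TPM in CORT livers and 13.1 ± 6.19 TPM in Veh livers (SD, n = 3 each), and at 304 ± 66.7 vs. 15.4 ± 7.41 TPM in the duodenum. The summed TPM of 8 hepatocyte markers ranged from 59335 to 93656 in Veh livers and from 75094 to 86412 in CORT livers, mostly Alb and Apoa1, and 1 of the 8 was called, Hnf4a, at 276 vs. 150 TPM (adjusted p = 0.0211). In the duodenum the 8 hepatocyte markers summed to 8590 to 12587 TPM in Veh and to 16000 to 21879 TPM in CORT, and 0 were called. Most of that sum was Apoa1, with mean levels of 19495 TPM in CORT and 9631 TPM in Veh, while Alb stayed between 0.13 and 0.39 TPM. The 8 enterocyte markers summed to 16127 to 21670 TPM in Veh and to 27910 to 31918 TPM in CORT duodenum. Of that list 0 of 8 were called, and most of the added sum was Apoa4, with mean levels of 19837 TPM in CORT and 9591 TPM in Veh, and Fabp2, with 5064 and 2757 TPM. The CORT to Veh ratio was 0.717 for Alpi, 0.892 for Vil1, 0.995 for Cdx2 and 0.997 for Sis. It was 1.22 for Slc5a1 and 1.43 for Lct. Pancreatic acinar genes made up 3.51% of all TPM in duodenum Veh2 and 2.77% of those in Veh3, but only 0.0173% in Veh1, and the 3 CORT libraries had 0.0141% to 0.0316%, so the duodenal values of Pygl, Gbe1, Gys1 and G6pc are also given with Veh1 as the only Veh library. Among livers, Veh2 and CORT3 were the lowest of their groups for Pygl. The liver that lay apart differed by gene, with Veh1 the lowest Veh liver for Gys2 and CORT2 the lowest CORT liver for Ppp1r3c. In pieces of tissue, fewer cells of a type and less RNA per cell cannot be told apart.

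In the liver, CORT was accompanied by higher transcripts of 2 glycogen-targeting subunits of PP1, while the synthase and the phosphorylase themselves were called in neither direction. Of the 9 members, 9 passed the filter on low values. In CORT, 2 were called higher and 0 were called lower, beside 4.91% and 2.01% of all liver genes tested. The 2 were Ppp1r3b and Ppp1r3c. The median log2 fold change of the 9 members was 0.26, beside 0.078 over all genes tested, and their median absolute value was 0.53, beside 0.27. For 4 of the 9 members the 3 CORT livers were fully separated from the 3 Veh livers, higher in CORT for Ppp1r3b and Ppp1r3c and lower for Ppp1r3g and Ugp2, and such a separation was found for 32.2% of all genes tested.

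**Figure D1:**
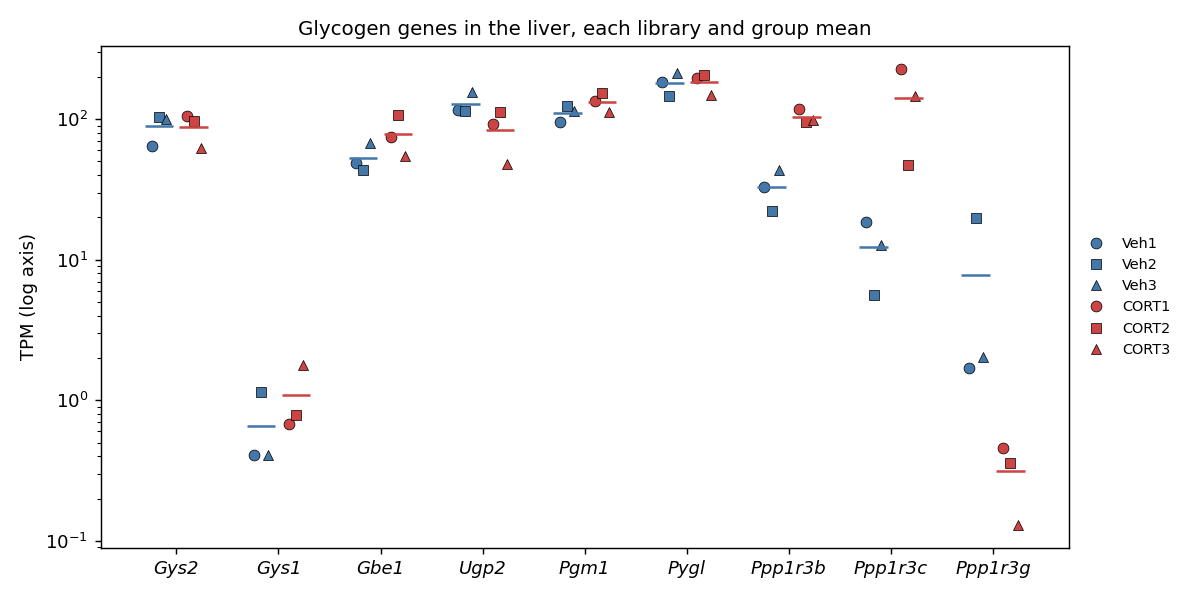
TPM of each of the 9 glycogen genes in each liver library (log axis). Blue points are Veh and red points CORT livers, marker shapes give the replicate number, and bars are arithmetic group means. All 3 CORT livers lie above all 3 Veh livers for Ppp1r3b and Ppp1r3c and below them for Ppp1r3g and Ugp2, and the groups are mixed for the other members.

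Ppp1r3b encodes GL, the main liver subunit that brings PP1 to glycogen. Its levels were 33.03, 22.10 and 43.29 TPM in the Veh livers and 118.69, 95.72 and 98.55 TPM in the CORT livers. The lowest CORT liver was thus well above the highest Veh liver, and the means were 104 ± 12.5 vs. 32.8 ± 10.6 TPM (SD, n = 3 each), a ratio of 3.18. The log2 fold change was 1.68 (SE 0.24, adjusted p = 0.0120). Ppp1r3b was called without any one of the 6 livers and also without Veh2 and CORT3 together, when its log2 fold change was 1.47 (adjusted p = 0.0348).

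Ppp1r3c encodes PTG, a targeting subunit that also binds glycogen synthase and phosphorylase. Its levels were 18.40, 5.58 and 12.82 TPM in Veh livers and 228.36, 46.85 and 146.49 TPM in CORT livers. Every CORT liver was above every Veh liver, but the CORT livers differed widely among themselves, with CORT2 far below the others. The means were 141 ± 90.9 vs. 12.3 ± 6.43 TPM, a ratio of 11.5, and the log2 fold change was 3.28 (SE 0.62, adjusted p = 0.0289). When single livers were left out, the call held in 1 of 6 cases, the one without CORT2. Without Veh1, Veh2, Veh3, CORT1 or CORT3 the log2 fold change was 2.80 to 3.62 with an adjusted p of 0.0570 to 0.0848, and without Veh2 and CORT3 together it was 2.68 (adjusted p = 0.119).

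Ppp1r3g encodes a targeting subunit known in the liver for its rise and fall with feeding. It stood at 1.71, 19.77 and 2.02 TPM in Veh livers and at 0.46, 0.36 and 0.13 TPM in CORT livers. The groups did not overlap, and 1 liver, Veh2, held most of the difference. The log2 fold change was -2.08 (SE 0.74, adjusted p = 0.136), so the gene was not called. Without Veh2 the log2 fold change was -1.13 and the call was made (adjusted p = 0.0450), as it was when all 12 libraries shared 1 estimate of the spread (adjusted p = 0.0364). That shared estimate (SE 0.59) also took in the duodenal libraries, where the gene was only at 0.03 to 0.30 TPM. The call was not made without Veh2 and CORT3 together (-1.02, adjusted p = 0.0630), nor with a pseudocount of 0.1 TPM, which moved the log2 fold change to -3.44 (adjusted p = 0.0654).

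The 7 targeting subunits of the family, Ppp1r3a to Ppp1r3g, summed to 56.63, 52.38 and 61.31 TPM in Veh livers and to 351.53, 148.16 and 249.63 TPM in CORT livers. Ppp1r3b held 58.3%, 42.2% and 70.6% of this sum in the Veh livers and 33.8%, 64.6% and 39.5% in the CORT livers, a difference of -11.1 percentage points (exact permutation p = 0.4, two-sided). Ppp1r3c held 32.5%, 10.7% and 20.9% of the sum in Veh livers and 65.0%, 31.6% and 58.7% in CORT livers, a difference of 30.4 points (exact permutation p = 0.2). Ppp1r3c was the larger of both in CORT1 and CORT3, and Ppp1r3b was the larger in CORT2 and in the 3 Veh livers. The share of Ppp1r3g was 3.02%, 37.7% and 3.29% in Veh livers and 0.131%, 0.243% and 0.0521% in CORT livers (exact permutation p = 0.1, the smallest that this design allows). Ppp1r3e, the only other member of the family above 1 TPM, was at 3.01 to 4.36 TPM over all 6 livers (log2 fold change 0.14, adjusted p = 0.612).

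**Figure D2:**
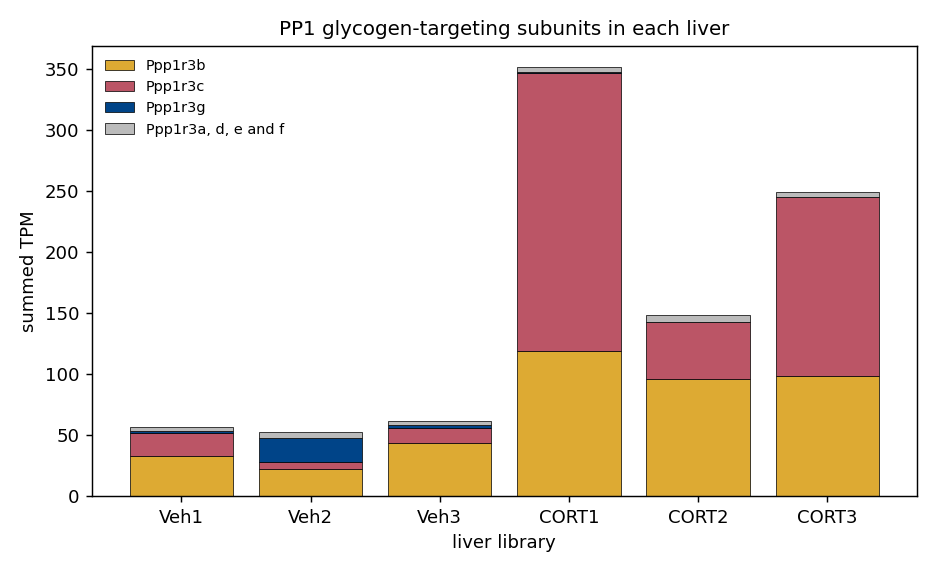
Summed TPM of the PP1 glycogen-targeting subunits in each liver library, stacked by gene. Each bar is 1 library. The sum is 52.38 to 61.31 TPM in Veh and 148.16 to 351.53 TPM in CORT livers, and most of the added height is Ppp1r3b and Ppp1r3c.

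Skeletal muscle and fat cells also express Ppp1r3c, and their markers were read in the same livers. The 6 skeletal muscle markers summed to 0.90 to 8.25 TPM in Veh and to 0.82 to 1.10 TPM in CORT livers, with Ckm, Myh1, Myh4 and Tnnt3 at 0 in all 6. The 6 adipocyte markers summed to 3.87 to 5.14 TPM in Veh and to 9.68 to 114 TPM in CORT livers. Adipoq and Lep were at 0 in every liver. Retn was at 0 in the Veh livers and at 0.14, 0.32 and 0 TPM in CORT1, CORT2 and CORT3. Plin1 was at 0.05, 0 and 0.02 TPM in Veh and at 0 in CORT livers. Cfd was at 1.27, 0.21 and 1.03 TPM in Veh and 1.23, 0.95 and 0.27 TPM in CORT livers. Cidec, a lipid droplet protein that fatty livers also express, accounted for most of the adipocyte sum. It was at 3.82, 3.66 and 3.59 TPM in Veh and 95.33, 112.75 and 9.41 TPM in CORT livers. Of the 6 only Cidec passed the filter on low values, and it was not called (adjusted p = 0.0607). The 6 macrophage markers summed to 111 to 136 TPM in Veh and 90.2 to 256 TPM in CORT livers. The 8 enterocyte markers summed to 119 to 223 TPM in Veh and 582 to 3923 TPM in CORT livers, with Alpi at 0. Most of the sum was Apoa4, an apolipoprotein that the liver also makes, and it was the 1 of the 8 called. Its means were 2362 TPM in CORT and 122 TPM in Veh livers (adjusted p = 0.0239). Fabp2 of the same list was at 37.10 to 49.78 TPM in Veh and 26.26 to 111.28 TPM in CORT livers. The part of these other cells in the values of Ppp1r3c was not tested.

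The enzymes that build glycogen showed no called change in the liver. Gys2, the liver glycogen synthase, was at 64.42, 104.08 and 101.00 TPM in Veh and 105.02, 96.98 and 61.93 TPM in CORT livers. The groups overlapped over nearly their whole range, and the means were 88.0 ± 22.9 vs. 89.8 ± 22.1 TPM. The log2 fold change was -0.03, with a 95% interval of -0.66 to 0.59 (adjusted p = 0.950). The interval reaches the fold limit of 1.5 in both directions, so a change of that size is not excluded. It is not adjusted for the number of genes tested, so with 3 livers per group a change above that limit could also have gone uncalled. Leaving out single livers turned its sign in 3 of 6 cases, and it was 0.32 without Veh2 and CORT3 (adjusted p = 0.413).

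Gys1, the synthase of muscle and other tissues, was near the lower end of measurement in the liver, at 0.41, 1.15 and 0.41 TPM in Veh and 0.68, 0.79 and 1.78 TPM in CORT (log2 fold change 0.32, adjusted p = 0.528). It passed the filter only through its CORT mean of 1.08 TPM, with a Veh mean of 0.657 TPM. Without CORT3, Gys1 was below the level tested in the liver. Gys2 made up 97.2% to 99.6% of the summed TPM of both synthases in the 6 livers. Gbe1, the branching enzyme, was at 48.70, 43.41 and 67.59 TPM in Veh and 74.08, 107.33 and 54.73 TPM in CORT livers. Of the CORT livers, 2 were above all Veh livers and CORT3 was not. The log2 fold change of Gbe1 was 0.53 (SE 0.27, adjusted p = 0.272).

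Ugp2, which makes UDP-glucose, was at 116.37, 114.53 and 155.37 TPM in Veh livers. It was at 91.76, 112.40 and 47.83 TPM in CORT livers, each below the lowest Veh liver, CORT2 by only a small margin. The means were 84.0 ± 33.0 vs. 129 ± 23.1 TPM, and the log2 fold change of -0.68 was not called (SE 0.31, adjusted p = 0.223). Pgm1, which interconverts the glucose phosphates and serves both directions of the pathway, was at 95.36, 124.29 and 113.77 TPM in Veh and 134.64, 153.49 and 112.41 TPM in CORT livers. Its groups overlapped, with a log2 fold change of 0.26 (SE 0.17, adjusted p = 0.371). The symbol Pgm1 stands here for ENSMUSG00000025791, which older annotations call Pgm2, and it made up 97.7% to 98.5% of the summed TPM of the genes now named Pgm1 and Pgm2 in the livers.

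Pygl, the liver phosphorylase and the member with the highest mean there in both groups, was at 184.92, 145.75 and 214.43 TPM in Veh and 196.15, 206.87 and 147.61 TPM in CORT livers. The groups covered the same range, with means of 184 ± 31.6 vs. 182 ± 34.5 TPM. The log2 fold change was 0.02, with a 95% interval of -0.45 to 0.48 (adjusted p = 0.966), and its sign turned when libraries were rescaled by their median ratio or when single livers were left out. Pygl made up 97.4% to 99.4% of the summed TPM of the 3 phosphorylases in the 6 livers. The log2 ratio of Gys2 to Pygl within a library, with 1 TPM added to each, depends little on how libraries were scaled. It was -1.51, -0.48 and -1.08 in Veh and -0.89, -1.09 and -1.24 in CORT livers. Phosphorylase transcripts thus exceeded synthase transcripts in every liver, and the group means differed by -0.051 (exact permutation p = 0.9).

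**Figure D3:**
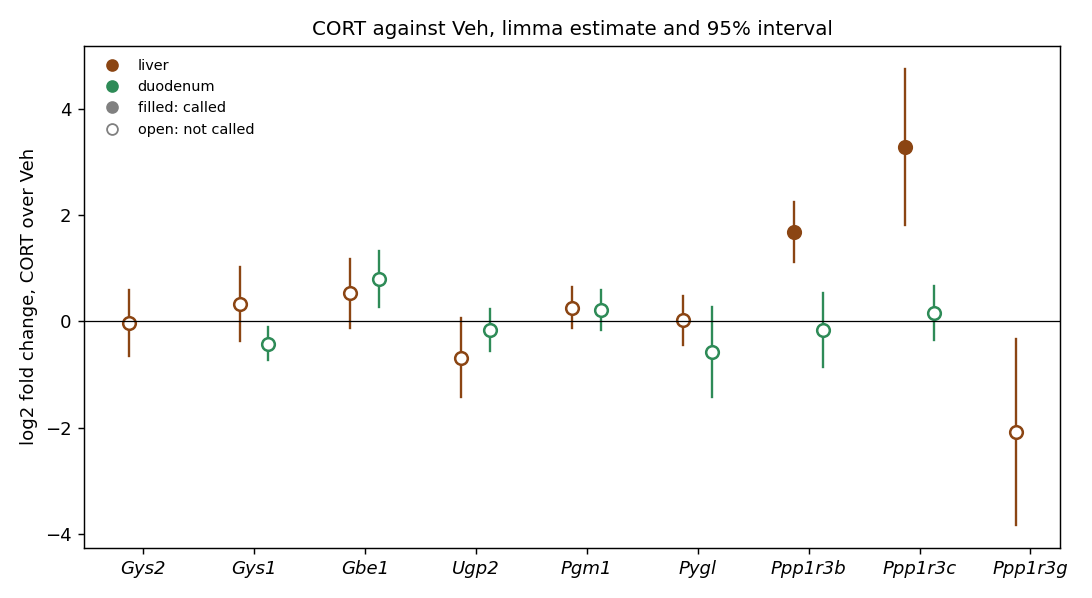
Log2 fold change of CORT over Veh for each glycogen gene in the liver (brown) and duodenum (green), with 95% intervals from limma. Filled points were called and open points were not. Only Ppp1r3b and Ppp1r3c in the liver are filled, and Gys2 and Ppp1r3g have no duodenal point because they were below the level tested.

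Over the 6 livers, the genes whose log2 values ran most like those of Gys2 were Trap1, Fbxw7, Uqcrc1, Ndufa9 and Cyc1, with Pearson r between 0.984 and 0.991. Those most like Pygl were Clybl, F2r, Cyp8b1, Ces2e and Aasdhppt, with r between 0.969 and 0.996. These are the highest of 11699 genes over only 6 libraries, and Veh1 and CORT3 were the 2 lowest livers for Gys2 while Veh2 and CORT3 were the 2 lowest for Pygl. Cyp8b1, the bile acid sterol 12-alpha-hydroxylase, for example was at 91.35, 38.36 and 185.57 TPM in Veh and 175.26, 206.19 and 33.09 TPM in CORT livers, with the same pair of low livers as Pygl.

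The rest of the glycogen pathway was read from 4 lists with 36 reported symbols, of which 34 were found in each table. In the liver 24 of these genes were tested and 1 was called, higher in CORT, with a median log2 fold change of 0.054 over the 24. The 1 of 24 called stands beside 6.92% of all liver genes tested. In 7 of the 24 the groups were fully separated, beside 32.2% of all genes. The called gene was Gsk3b, of the list of PP1 subunits and GSK3 (1 of 6 tested). Of the other enzymes and granule proteins 0 of 7 were called by limma, with 0 at an unadjusted p under 0.05, a level that 25.9% of all liver genes tested reached. Of the genes of glucose 6-phosphate and hormone receptors 0 of 8 were called, with 2 at an unadjusted p under 0.05, and of the phosphorylase kinase subunits 0 of 3 were called, with 1 at an unadjusted p under 0.05.

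Gsk3b, a kinase that inactivates glycogen synthase, was at 3.64, 4.77 and 3.01 TPM in Veh and 8.02, 7.53 and 7.77 TPM in CORT livers, with a log2 fold change of 0.88 (SE 0.16, adjusted p = 0.0262). Its call was lost without Veh1, Veh3, CORT1, CORT2 or CORT3 (adjusted p 0.0676 to 0.104), with the direction kept.

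Other liver genes of the pathway were not called. Phka2, the liver phosphorylase kinase alpha subunit, was at 4.53, 4.52 and 4.74 TPM in Veh and 2.71, 3.46 and 2.34 TPM in CORT livers (log2 fold change -0.55, adjusted p = 0.0778). Gcgr, the glucagon receptor, had a log2 fold change of -0.32 (adjusted p = 0.152), and Slc37a4 of the same list had 0.65 (adjusted p = 0.167). G6pc, the glucose 6-phosphatase that lets glucose leave the hepatocyte, was at 80.32, 31.63 and 120.82 TPM in Veh and 138.36, 137.95 and 81.33 TPM in CORT livers (log2 fold change 0.77, adjusted p = 0.357). Of the other phosphorylases, Pygb had a log2 fold change of -0.12 (adjusted p = 0.850) and Pygm, at 0.33 to 0.62 TPM, was below the level tested.

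**Figure D4:**
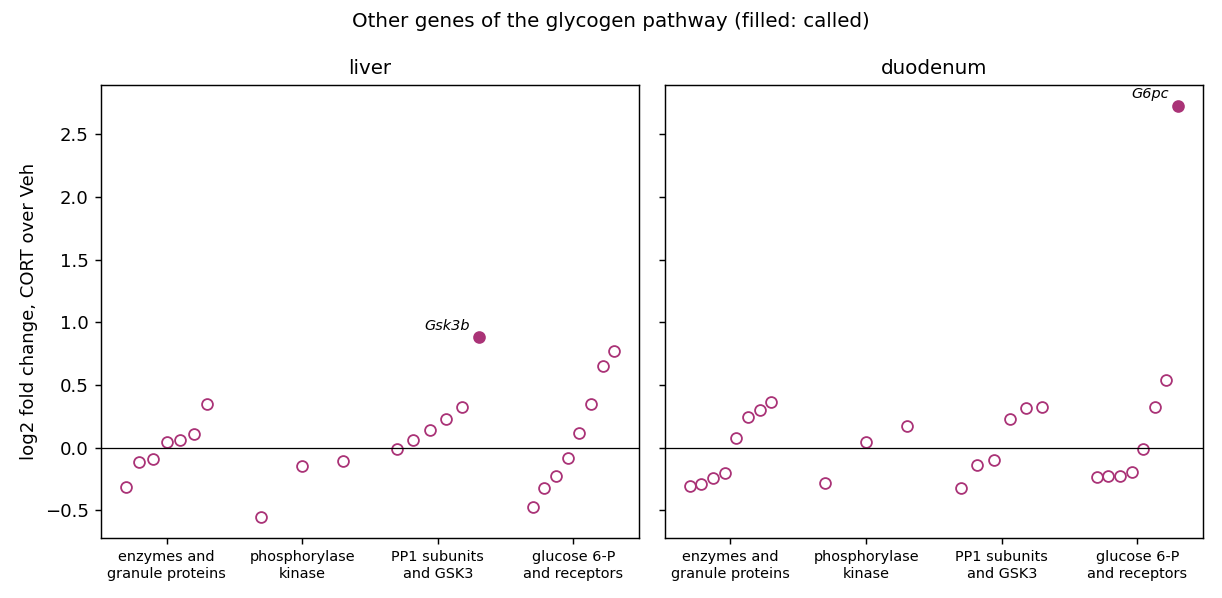
Log2 fold change of CORT over Veh for the tested genes of 4 lists of the wider glycogen pathway, in the liver (left) and the duodenum (right). Each point is 1 gene, ordered by value within its list. Filled points were called, namely Gsk3b in the liver and G6pc in the duodenum, and the other points lie on both sides of 0.

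In the duodenum none of the members that could be tested was called. Of the 9 members 7 passed the filter, and limma called 0 of the 7, beside 2.15% of all duodenal genes tested. An unadjusted p under 0.05 was reached by 2, namely Gbe1 and Gys1, beside 19.2% of all duodenal genes tested. The median log2 fold change of the 7 was -0.16, beside -0.012 over all genes tested, and their median absolute value was 0.21, beside 0.23. In 2 of the 7, again Gbe1 and Gys1, both groups were fully separated, beside 26.4% of all genes tested. With Veh1 as the only Veh library, 10 genes were called in all and 0 members, but that fit has little power, since Fkbp5 was not called either (log2 fold change 4.32, adjusted p = 0.0566). Against Veh1 alone, the log2 fold change of Gbe1 was 0.93 and that of Gys1 was -0.42. Leaving out any single duodenal library also gave 0 called members.

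Gbe1 was at 3.05, 3.01 and 4.38 TPM in Veh and 5.02, 8.95 and 6.66 TPM in CORT duodenum. The means were 6.88 ± 1.97 vs. 3.48 ± 0.780 TPM, a ratio of 1.98, and the log2 fold change of 0.80 was not called (SE 0.22, adjusted p = 0.127). Gys1, which takes the place of Gys2 in this tissue, was at 5.71, 5.97 and 5.41 TPM in Veh and 4.28, 3.61 and 4.17 TPM in CORT duodenum. The libraries of each group lay close together, the log2 fold change was -0.42 (SE 0.13, adjusted p = 0.154), and its size was below the fold limit. Gys2 was listed at 0 in 5 of the 6 duodenal libraries and at 0.04 TPM in CORT1.

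The enzymes of UDP-glucose supply were the most abundant members in the duodenum. Pgm1 was at 58.91, 65.61 and 56.40 TPM in Veh and 79.67, 56.97 and 74.94 TPM in CORT (log2 fold change 0.21, adjusted p = 0.507). Ugp2 was at 45.64, 43.18 and 38.98 TPM in Veh and 31.35, 47.05 and 36.59 TPM in CORT (log2 fold change -0.17, adjusted p = 0.624). Both overlapped between groups. Pgm1 made up 35.1% to 43.6% of the summed TPM of Pgm1 and Pgm2 in the duodenum.

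Pygl was at 3.33, 9.08 and 3.30 TPM in Veh and 2.19, 2.67 and 3.86 TPM in CORT duodenum (log2 fold change -0.57, SE 0.36, adjusted p = 0.428). The groups overlapped, and Veh2, the library with 3.51% of its TPM in acinar genes, stood well above the others. Against Veh1 alone the log2 fold change of Pygl was -0.17 (adjusted p = 0.866). The part of pancreatic RNA in these values was not tested. Pygl made up 15.3% to 33.0% of the summed TPM of the 3 phosphorylases, most of which was Pygb, the brain form, at 16.03, 16.63 and 15.27 TPM in Veh and 11.05, 11.60 and 15.90 TPM in CORT (log2 fold change -0.31, adjusted p = 0.340). Pygm, the muscle form, was at 1.84, 1.79 and 2.20 TPM in Veh and 1.10, 1.63 and 1.52 TPM in CORT (log2 fold change -0.29, adjusted p = 0.422). The 6 smooth muscle markers summed to 451 to 902 TPM in Veh and to 298 to 484 TPM in CORT duodenum, and the part of the muscle layer in the values of Gys1, Pygb and Pygm was not tested.

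The targeting subunits were low in the duodenum. Ppp1r3b was at 0.72, 1.86 and 0.54 TPM in Veh and 0.47, 1.01 and 0.85 TPM in CORT (log2 fold change -0.16, 95% interval -0.85 to 0.54, adjusted p = 0.803). Ppp1r3c was at 1.06, 1.24 and 0.84 TPM in Veh and 0.89, 1.33 and 1.72 TPM in CORT (log2 fold change 0.17, 95% interval -0.34 to 0.67, adjusted p = 0.703). Both genes overlapped between groups. Ppp1r3g was at 0.14, 0.30 and 0.11 TPM in Veh and 0.03, 0.08 and 0.07 TPM in CORT, below the level tested, with every CORT library under every Veh library. The family summed to 7.19 to 11.10 TPM over the 6 libraries, and Ppp1r3e made up 58.8% to 80.6% of it.

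**Figure D5:**
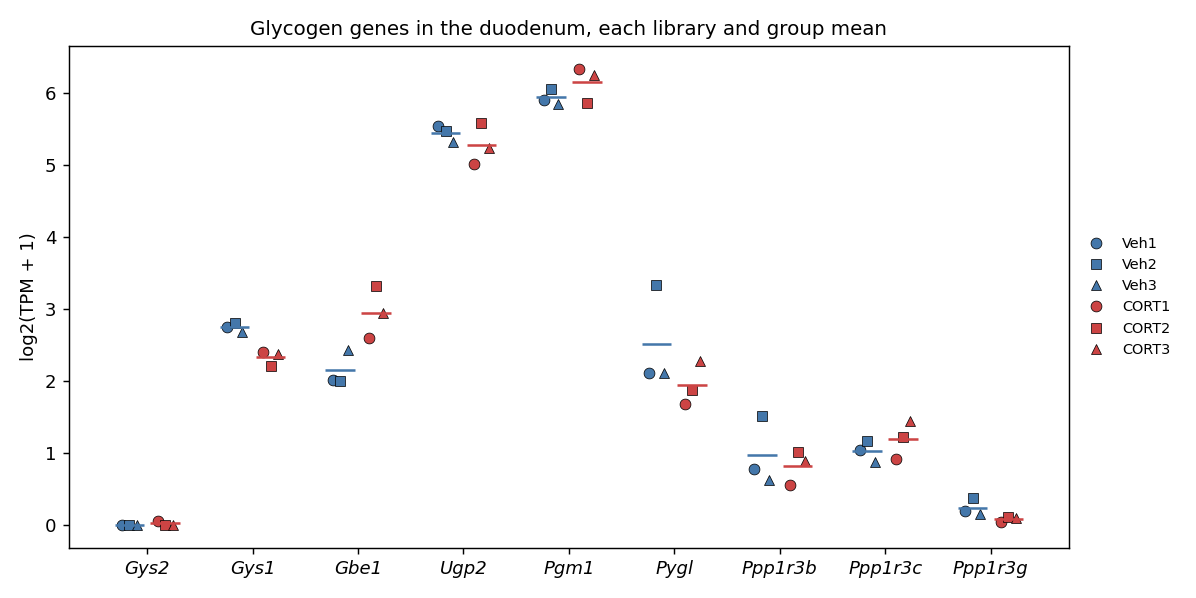
Log2(TPM + 1) of each glycogen gene in each duodenal library. Blue points are Veh and red points CORT, marker shapes give the replicate number, and bars are group means on this scale. Gbe1 is higher and Gys1 lower in all 3 CORT libraries, neither called, and Veh2 is the highest library for Pygl, Ppp1r3b and Ppp1r3g.

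Of the 25 other pathway genes tested in the duodenum, 1 was called, beside 2.15% of all genes. G6pc was at 24.80, 9.84 and 10.62 TPM in Veh and 101.05, 123.66 and 73.40 TPM in CORT duodenum. Every CORT library was far above every Veh library, with means of 99.4 ± 25.2 vs. 15.1 ± 8.42 TPM, a ratio of 6.59 (log2 fold change 2.73, SE 0.36, adjusted p = 0.0205). Against Veh1 alone, the Veh library with few acinar transcripts, the log2 fold change was 1.93 (adjusted p = 0.222). The call was also lost without Veh2, Veh3, CORT1 or CORT2 (adjusted p 0.0610 to 0.0785). Apoa4 and Fabp2 of the enterocyte list were likewise fully separated, with CORT above Veh, while Alpi, Vil1, Cdx2, Sis, Lct and Slc5a1 overlapped between groups. Of these, Lct (480 vs. 336 TPM) and Slc5a1 (1417 vs. 1158 TPM) had the higher mean in CORT. The part of enterocyte RNA in the change of G6pc was not tested. The median log2 fold change of the 25 genes was -0.0095, and 7 of them had fully separated groups, beside 26.4% of all duodenal genes tested.

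Whether the response differed between tissues was tested with a treatment by tissue term over all 12 libraries. The tables were normalised separately, so levels across tissues are only set side by side, and the term compares changes within each table. Of 10500 genes tested, 3% were called, and among the members tested these were Ppp1r3b and Ppp1r3c. The log2 fold change of Ppp1r3b was larger in the liver by 1.84 (SE 0.37, adjusted p = 0.0215), and that of Ppp1r3c by 3.12 (SE 0.69, adjusted p = 0.0330). In both tissues Ppp1r3b and Ppp1r3c were measured in every library, but at about 1 TPM in the duodenum the log2(TPM + 1) scale compresses any change. Ppp1r3b passed the duodenal filter only through its Veh mean of 1.04 TPM, with a CORT mean of 0.777 TPM. That Veh mean rested on Veh2, at 1.86 TPM, the library with 3.51% of its TPM in acinar genes. Without Veh2, Ppp1r3b was below the level tested in the duodenum. With a pseudocount of 0.1 TPM the difference for Ppp1r3b was 1.97 and was not called (adjusted p = 0.0832). The differences for Gys1 (0.74, adjusted p = 0.241), Pygl (0.59, adjusted p = 0.512), Ugp2 (-0.52, adjusted p = 0.515), Gbe1 (-0.27, adjusted p = 0.760) and Pgm1 (0.049, adjusted p = 0.940) were not called. Gys1 passed the liver filter only through its CORT mean of 1.08 TPM. For G6pc, called in the duodenum and not in the liver, the difference was -1.96 (SE 0.64, adjusted p = 0.128), and for Gsk3b, called in the liver and not in the duodenum, it was 0.56 (adjusted p = 0.165). Gys2 and Ppp1r3g were below the level tested in the duodenum and have no such test.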

How the data were processed

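RNA-seq of liver and duodenum was analysed, with 3 Veh and 3 CORT libraries per tissue. The authors used SeqPrep and Sickle for trimming, HISAT2 for alignment, StringTie for assembly and RSEM for quantification, and GRCm39 is named in the submitters' processing notes. Versions are not given in the sources used here. The tables deposited by the authors hold TPM for each gene in each library, so depth is unknown and no counting interval can be given. Groups and replicate numbers came from the labels. Genes were kept if 1 of the groups averaged 1 TPM or more, and their log2(TPM + 1) was fitted per tissue with limma 3.58.1 (trend) in R 4.3.3, with Benjamini-Hochberg adjustment over all genes tested, and all adjusted p-values and 95% intervals are limma's. Single ratios and shares were compared with an exact two-sided permutation test. The fits were tested on simulated data with no change or with changes well above the fold limit of 1.5. That test does not show the power near this limit.

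The members and gene lists were chosen with earlier results of these data known. Named were the 9 members, other pathway genes that were called, Pygb and Pygm, Fkbp5, and the 5 genes most correlated with Gys2 and with Pygl. Phka2, Gcgr, Slc37a4, G6pc in the liver, Ppp1r3e, Cidec and single marker genes were named after their values were seen. Some genes of the pathway lists are not reported here and stay out of the lists' counts, whatever their values. Alternatives were a pseudocount of 0.1, no filter, a replicate block, median-ratio scaling, unadjusted p, all 12 libraries in 1 fit, Veh1 as the only duodenal Veh library, and leaving out each library. Leaving out liver Veh2 and CORT3 together was added after seeing the data. Labels do not say whether a liver and a duodenum came from 1 animal. Promoter windows are RefSeq's (GRCm38.p6). Figures were drawn with matplotlib 3.10.9.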

Additional observations from a re-analysis of the deposited data

Results flagged for a closer look

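The response of 2 glycogen-targeting subunits to CORT differed between the tissues by a test of the difference itself. For Ppp1r3b the log2 fold change in the liver exceeded that in the duodenum by 1.84 (limma, adjusted p = 0.0215), with 1.68 in the liver and -0.16 in the duodenum. The difference was called in 10 of 12 fits that left out a library, and was lost without liver CORT1 (1.74, adjusted p = 0.0596) and without duodenum CORT1 (1.71, adjusted p = 0.0519). These fits kept the genes that passed the filter with all 12 libraries, which Ppp1r3b did in the duodenum only through Veh2.

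For Ppp1r3c the difference was 3.12 (adjusted p = 0.0330), with 3.28 in the liver and 0.17 in the duodenum. It was called in 3 of 12 fits that left out a library and ranged from 2.63 to 3.76 over the 12, with an adjusted p of 0.0563 to 0.0760 in those that lost it. These were the fits without liver Veh3, CORT1 or CORT3 and without any one of the 6 duodenal libraries.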

How the results depend on the processing

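Ppp1r3b in the liver was called under each alternative run, with a log2 fold change of 1.43 to 1.90. Ppp1r3c kept its direction, but was not called without a filter on low values (adjusted p = 0.0883). Leaving out 1 library gave 247 to 831 called genes in the liver (810 with all), 1 to 2 members and 0 to 1 other pathway genes, 66 to 237 genes (292 with all) and 0 to 1 other pathway genes in the duodenum, and 0 to 2 members in the test between tissues. Without Veh2 and CORT3 together, an alternative chosen after seeing the data, 1 liver member was called, and 1 other pathway gene as before.

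With no filter, Gsk3b (adjusted p = 0.0757), G6pc in the duodenum (0.0681) and the differences between tissues for Ppp1r3b (0.0566) and Ppp1r3c (0.0904) were also lost. In this setting 283 genes, 1 member and 0 other pathway genes were called in the liver, 52 genes and 0 other pathway genes in the duodenum, and 0 members between tissues, where a pseudocount of 0.1 left 1. With unadjusted p, 1808 genes and 2 other pathway genes were called in the liver, and 1395 genes and 1 member, Gbe1, in the duodenum. All 12 libraries in 1 fit gave 1384 genes in the liver and 743 in the duodenum. With Veh1 as the only duodenal Veh library, 10 genes and 0 other pathway genes were called, and Veh1 was assumed to vary like the CORT libraries.

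With the replicate number as a block, 307 genes and 0 other pathway genes were called in the liver, where Gsk3b was lost (adjusted p = 0.0749), and 62 genes and 0 other pathway genes in the duodenum, where G6pc was lost (adjusted p = 0.0541). The deviations of same-numbered libraries correlated at -0.12 to 0.038 in the liver and at -0.0039 to 0.073 in the duodenum, so the numbers were not taken as a pairing.

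Signs turned only for values that were not called. Liver log2 fold changes over the fits without 1 library ran from -0.25 to 0.20 for Gys2 (0.087 without Veh2, 0.066 without Veh3, 0.20 without CORT3), from -0.13 to 0.17 for Pygl, from -0.33 to 0.26 for Pygb, and from -0.29 to 0.22 for the log2 ratio of Gys2 to Pygl. Pygl was at -0.078 under median-ratio scaling, and without Veh2 and CORT3 together Gys2 was at 0.32 and Pygb at 0.22. The difference between tissues for Pgm1 ran from -0.096 to 0.17 without 1 library and was -0.051 under median-ratio scaling. The causes were not tested. Depth is unknown, and genes near 1 TPM, such as the targeting subunits in the duodenum, carry the least information.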
